A study of Mus musculus with 7 samples.

Results

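Small RNAs of E10.5 mouse motoneurons were compared with those of GFP-negative cells sorted from the same tissue. All 4 libraries came from spinal cords of Hb9::gfp embryos at E10.5, 2 from the GFP-positive and 2 from the GFP-negative fraction, and no other allele or treatment is given for them. In Hb9::gfp mice, regulatory DNA of the motoneuron transcription factor gene Hb9 (Mnx1) drives GFP, so the GFP-positive fraction is defined by this transgene alone. The cords were dissected, dissociated with the protease papain and sorted by fluorescence. The GFP-negative fraction is a mixture of all cells in the dissected tissue without detectable GFP, and its makeup is not given. Nothing in the labels ties a library to a litter or a sort, so p-values measure the spread between libraries, which may be technical. The series also holds 1 E12.5 library each of Hb9::gfp motoneurons, V2a interneurons (Chx10::cre;Rosa26::LSL::tdTomato) and V3 interneurons (Sim1::cre;Rosa26::LSL::tdTomato), which were only set beside the E10.5 values. Every mature miRNA at 15 RPM (reads per 1000000) or more in at least 2 of the 4 E10.5 libraries was analysed, which gave 492 of 1908 annotated rows and 99.76% to 99.82% of each library's RPM. In sorted bulk RNA, fewer cells of a type and less RNA per cell cannot be told apart.

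A miRNA is cut from a hairpin precursor, and either arm of the hairpin (5p or 3p) can be loaded into an Argonaute protein. Pairing of the seed, bases 2 to 8 of the mature strand, with sites in messenger RNAs guides repression, so miRNAs with one seed form a family that can share targets. Many hairpins lie in clusters that are transcribed as one precursor or sit in introns of a host gene, and miR-218, from introns of Slit2 and Slit3, is known for its high level in motoneurons.

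The mature sequences below, from RefSeq (GRCm38.p6, which held 403 of the 492), are written 5′ to 3′ with the seed in capitals. The first set holds miRNAs that were higher in motoneurons and whose values are given further on.
miR-218-5p: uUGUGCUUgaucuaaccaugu
miR-3475-3p: uCUGGAGGcacaugguuugaa
miR-672-5p: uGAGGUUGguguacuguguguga
miR-760-3p: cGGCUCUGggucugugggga
miR-615-3p: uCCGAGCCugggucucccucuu
The second set holds miRNAs that were far lower in motoneurons.
miR-199b-3p: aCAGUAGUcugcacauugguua
miR-199a-3p: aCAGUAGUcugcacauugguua
miR-214-3p: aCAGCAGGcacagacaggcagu
miR-335-3p: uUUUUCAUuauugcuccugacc
miR-483-3p: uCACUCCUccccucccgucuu
miR-675-5p: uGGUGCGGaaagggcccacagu
The third set is shown because its members share a seed and were called in opposite directions, miR-92a-3p and miR-25-3p as lower and miR-92b-3p as higher in motoneurons.
miR-92a-3p: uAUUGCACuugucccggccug
miR-25-3p: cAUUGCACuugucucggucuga
miR-92b-3p: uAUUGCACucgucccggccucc
The rows miR-199a-3p and miR-199b-3p have the same letters, so reads cannot assign a molecule to either, and their separate RPM values rest on the authors' division of shared reads. The deposited file groups related rows into bundles, whose rows are said below to share reads although not all have the same letters, and 129 of the 492 miRNAs were in bundles of several rows.

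Depth ran from 493234 to 802754 reads per library, and a count of 0 allowed up to 3.74 to 6.08 RPM (3 reads, counting error only). The sorted fractions were first checked against miRNAs known from single cell types. miR-218-5p, the defining motoneuron miRNA, stood at 177885 and 200305 RPM in motoneurons against 6623 and 7315 in GFP-negative cells, where its mean was 3.69% of that in motoneurons. The mesenchymal and smooth muscle list (miR-199a/b, miR-214, miR-143, miR-145) went the other way, with summed levels of 1571 and 424 RPM in motoneurons against 81413 and 94290 RPM. Those motoneuron sums were 1.79% and 0.482% of the GFP-negative mean, so motoneuron library 1 held more of these miRNAs than library 2. Striated muscle miRNAs summed to 369 and 148 RPM in motoneurons against 4216 and 3824, and endothelial miRNAs to 552 and 320 against 1056 and 739. Blood miRNAs summed to 207 and 153 RPM against 242 and 203, and the liver miRNA miR-122-5p lay between 202 and 253 RPM in all 4 libraries. Markers of mesenchyme and muscle were thus far more abundant in the GFP-negative libraries, and their part in the differences below was not tested.

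Across the 492 miRNAs, 57 (11.6%) were higher and 151 (30.7%) were lower in motoneurons (limma on log2(RPM + 1), Benjamini-Hochberg adjusted p under 0.05). Among those called, the 2 motoneuron libraries never overlapped with the 2 others. Over all 492, both motoneuron libraries lay above both others for 123 (25.0%) and below both for 239 (48.6%). Of the 492, 449 reached 15 RPM in a library of each group (51 higher, 126 lower), 10 only in motoneurons (6 higher) and 33 only in GFP-negative cells (25 lower), and the last 2 kinds had to differ to be tested at all. Of the 151 falls 53 exceeded 4-fold, with a median log2 fold change of -1.63, and of the 57 rises 8 did, with a median of 1.16. On the median of ratios scale described next, the same miRNAs had medians of -1.28 and 1.5, with 40 and 13 over 4-fold, so the order of the 2 medians depends on the scaling. The miRNAs called lower summed to 423469 and 461283 RPM in GFP-negative cells and to 174101 and 161016 RPM in motoneurons. miRNAs called higher summed to 350998 and 372931 RPM in motoneurons against 99245 and 103922, or 173113 and 172627 against 92622 and 96608 without miR-218-5p.

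Because RPM values are shares of a library, this balance depends on the scaling. The median log2 fold change of all 492 was -0.34, and scaling by the median of ratios raised that median by 0.33 (single miRNAs by 0.16 to 0.35, least where counts were low) and split the calls into 94 higher and 116 lower. All 57 miRNAs called higher and 116 of the 151 called lower were also called in the same direction on that scale. Each library was also left out in turn, with the filter applied again. The 6 higher and 25 lower miRNAs that passed through 1 group alone were then untested without a library of that group. They could not be called in all 4 fits. Fewer were called higher without motoneuron replicate 1 (29) or 2 (27), and 21 of the 57 and 84 of the 151 were called with any of the 4 libraries left out.

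**Figure D1:**
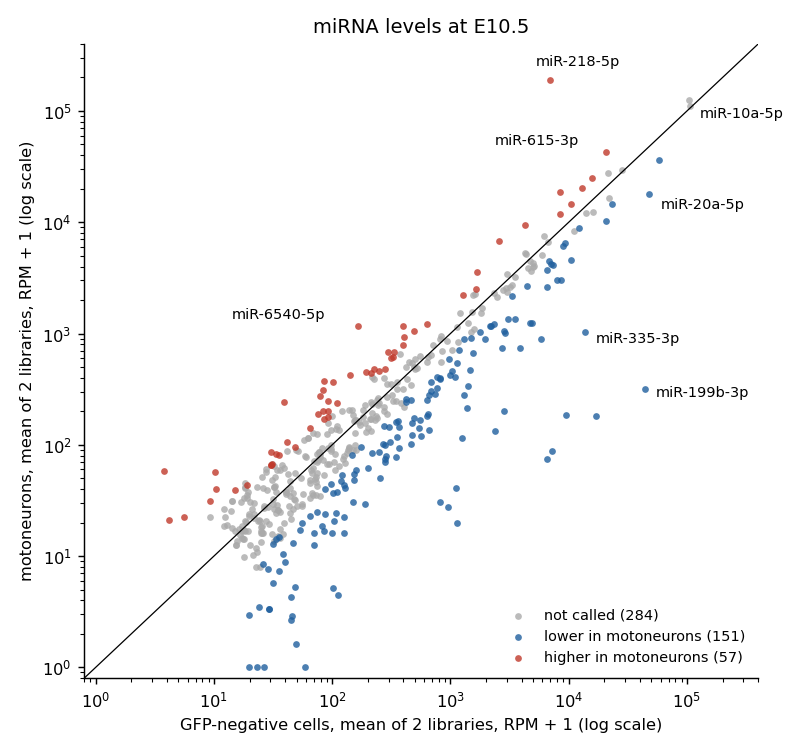
Mean level of each of the 492 miRNAs in GFP-negative cells (x axis) and motoneurons (y axis), in RPM + 1 on log scales, with 1 point per miRNA coloured by its call and the line of equal levels drawn. The lower calls include the row miR-199b-3p (same letters as miR-199a-3p), at a mean of 43954 RPM in GFP-negative cells, while miR-218-5p stands apart above the line.

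The most abundant miRNAs were partly shared. Of the 15 that were among the 10 most abundant of either group, 5 stood in both top 10 lists, 5 were called higher and 5 lower in motoneurons. Both miR-10 rows, encoded among the Hox genes and in one bundle, were among the top 3 of both groups. The groups of miR-10b-5p overlapped, and its fold change turned negative without GFP-negative replicate 2. miR-10a-5p was at 130120.5 and 120238 RPM in motoneurons and at 120645 and 87639 RPM in GFP-negative cells, so the groups overlapped (log2 fold change 0.28, limma adjusted p = 0.241). miR-370-3p, from the Dlk1-Dio3 imprinted region, also overlapped, at 28693 and 30724 against 28829 and 27428 RPM. miR-9-5p, a miRNA of neural progenitors and neurons, was at 24587 and 31007 RPM against 23473 and 19189 and did not pass (0.38, limma adjusted p = 0.124). On the median of ratios scale miR-10a-5p and miR-9-5p were called higher (limma adjusted p = 0.0461 and 0.0218). miR-20a-5p of the miR-17~92 cluster ranked 11 in motoneurons and 4 in GFP-negative cells, at 18756 and 17019 against 45745 and 50608 RPM. Its libraries did not overlap, and it was lower in motoneurons (-1.43, SE 0.14, limma adjusted p = 0.000555).

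Several miRNAs with no place in the neuronal lists were among the 15 largest rises. miR-3475-3p was at 369.98 and 365 RPM in motoneurons against 90.03 and 111 RPM (log2 fold change 1.87, SE 0.25, limma adjusted p = 0.00155). The hairpin lies between genes on the X chromosome (chrX:140310948-140311012, plus strand, GRCm38.p6). miR-672-5p stood at 292 and 257 RPM against 74.6 and 81.7 (1.80, SE 0.25, limma adjusted p = 0.00191), and its hairpin (chrX:104116175-104116274, minus strand) lies in an intron of Nexmif, a gene linked to neurite extension and migration. miR-760-3p was the most abundant of the 3, at 1203 and 1131 RPM against 418 and 381 (1.55, SE 0.18, limma adjusted p = 0.0010), from an exon of the noncoding gene Gm17494 (chr3:122293585-122293703, minus strand). In all 3 the motoneuron libraries lay close together and well above both others, and each was called with any 1 library left out. miR-139-3p, from an intron of the phosphodiesterase gene Pde2a (chr7:101475376-101475443, plus strand), was low, at 32.4 and 28.4 RPM against 9.0 and 7.43. It passed the abundance filter through motoneurons alone and was not called without either GFP-negative replicate (1.65 and 1.89). Without either motoneuron replicate it fell below the filter and was not tested.

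Most of the other large rises were in miRNAs of low level. miR-3085-3p stood at 331 and 156 RPM against 41.2 and 35.3, and its partner miR-3085-5p at 16.2 and 24.3 against 2.57 and 3.71, the latter passing the filter only in motoneurons. miR-3078-3p, at 34.9 and 42.6 against 3.86 and 14.9 RPM, and miR-302c-3p, at 26.7 and 16.6 against 5.38 and 3.82, likewise reached 15 RPM in motoneurons alone. miR-3085-5p and miR-302c-3p were not called without either GFP-negative replicate (2.15 and 2.55, and 1.79 and 2.19), and miR-3078-3p was not called without GFP-negative replicate 1 (1.32). Without either motoneuron replicate, all of these fell below the filter and were not tested. miR-6540-5p, the largest rise after miR-218, stayed called with any library left out (2.58 to 3.13). miR-6540-5p itself was at 1099 and 1243 RPM against 132 and 195, far above the level of a few reads.

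**Figure D2:**
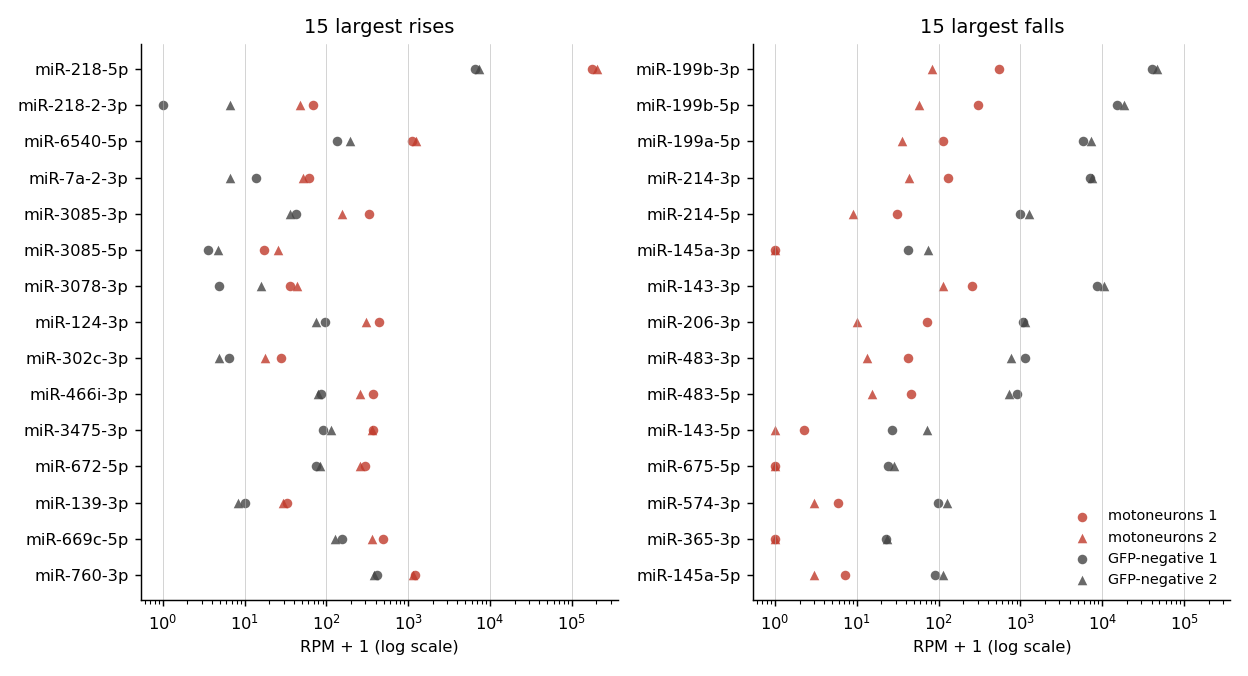
Level of the 15 miRNAs with the largest rises (left) and the 15 with the largest falls (right) in each of the 4 libraries, in RPM + 1 on a log scale. Red symbols are motoneuron libraries and grey symbols GFP-negative libraries, and a symbol at 1 is a count of 0, as for miR-675-5p and miR-365-3p in both motoneuron libraries.

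Lists of miRNAs with a known role were read against the background of 11.6% higher and 30.7% lower and the median of -0.34. The pan-neuronal list, which includes miR-124, miR-7, miR-128 and miR-137, had 6 of 11 members higher and none lower, with a median log2 fold change of 0.59. One of the 6, miR-7a-2-3p, passed the filter through motoneurons alone, and with 15 RPM required in each group 5 of 10 were higher. miR-124-3p, a repressor of nonneuronal transcripts, was at 445 and 306 RPM against 95.2 and 74.3, and the other arm, miR-124-5p, at 607 and 604 against 381 and 247. miR-124-3p was called with any 1 library left out, and miR-124-5p was not without motoneuron replicate 1 or 2 or GFP-negative replicate 2. miR-128-3p, also neuronal, was level at 2088 and 2575 against 2125 and 2506 RPM, and miR-137-3p had 0.58 without passing (limma adjusted p = 0.258). Without motoneuron replicate 1 or 2, 1 pan-neuronal member was called in each case, and without GFP-negative replicate 1 or 2, 3 and 4 were called. The neural progenitor list (both arms of miR-9 and miR-92b) had 1 of 4 higher, miR-92b-3p, or 3 with the median of ratios. miR-92b-3p was not called without motoneuron replicate 1, motoneuron replicate 2 or GFP-negative replicate 2, with 0.36 to 0.66 over the 4 fits.

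Of 9 Hox-cluster members, 3 were higher, miR-615-3p, miR-196a-5p and miR-196b-5p. miR-615-3p ranked 4 in motoneurons, at 43148 and 41785 RPM against 21674 and 19952. The 2 miR-196 rows, which share reads, stood at 414 and 472 RPM against 229 and 197, and at 776 and 809 against 430 and 362, and miR-196a-5p was not called without motoneuron replicate 2. The miR-99, miR-100 and miR-125 list had 2 of 9 higher, and none without motoneuron replicate 2. miR-99a-5p was at 21911 and 27939 RPM against 14108 and 17205, while miR-99b-5p, with the same seed, was at 7650 and 8969 against 8907 and 13438 and did not pass. miR-99a-5p was not called without motoneuron replicate 2. Rodent repeat families (miR-466, miR-467 and miR-669) had 9 of 33 higher and none lower, or 18 with the median of ratios, 13 of 32 with 15 RPM required in each group, 3 of 16 with shared rows summed, and 4 of 30 and 4 of 33 without motoneuron replicate 1 and GFP-negative replicate 2. miR-669c-5p, the second of these after miR-466i-3p, was at 496 and 357 RPM against 154 and 126. The list of miR-219 and its companions, known from oligodendrocytes, had 5 of 7 higher, all of them in shared bundles, or 2 of 3 with shared rows summed. In this list miR-219a-2-3p was at 19596 and 17569 RPM against 9128 and 7858. miR-219a-5p (0.65 to 1.18) and miR-219c-3p (0.66 to 1.24) were not called without motoneuron replicate 1 or GFP-negative replicate 2. The list of miR-302, miR-367 and miR-290 had 1 of 7 higher, miR-302c-3p, which reached 15 RPM in motoneurons alone. miR-302c-3p was not called without either GFP-negative replicate (1.79 and 2.19) and was not tested without either motoneuron replicate.

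**Figure D3:**
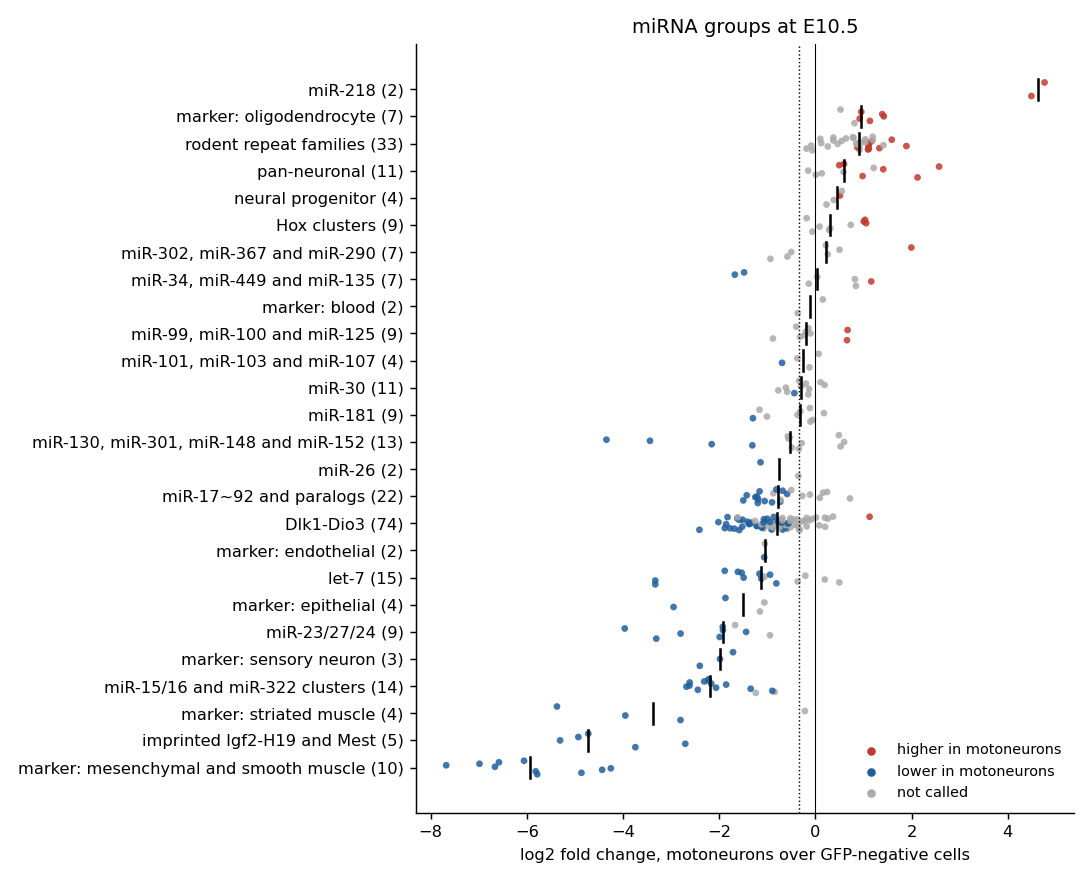
Log2 fold change (motoneurons over GFP-negative cells) of each member of each list, with the number of members in parentheses, coloured by call. Black bars are list medians and the dotted line is the median of all 492 miRNAs (-0.34); the mesenchymal list lies farthest to the left, with a median of -5.94.

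The list farthest below the background after the mesenchymal one was that of imprinted growth genes, the Igf2-H19 region and Mest, in which 5 of 5 tested members were lower. One of them, miR-675-5p, reached 15 RPM in GFP-negative cells alone and so had to be lower, and the list's median of -4.72 is its own fitted value. Without it 4 of 4 were lower, with a median log2 fold change of -4.34. miR-335-3p, from an intron of Mest (chr6:30741299-30741396, plus strand), was the most abundant of them, at 1132 and 931 RPM in motoneurons and 14550 and 13031 RPM in GFP-negative cells (-3.74, SE 0.17, limma adjusted p = 3.57e-05). The other arm of the hairpin, miR-335-5p, was at 1018 and 779 RPM against 6495 and 5209 (-2.71, SE 0.20, limma adjusted p = 0.000268). miR-483-3p, from an intron of Igf2 (chr7:142654924-142654996, minus strand), was at 41.1 and 12.2 RPM against 1150 and 756. miR-675-5p, cut from an exon of the imprinted noncoding RNA H19 (chr7:142577064-142577147, minus strand), was 0 in both motoneuron libraries and at 23.2 and 27.9 RPM in the others. Taking 3 reads per motoneuron library as the floor, miR-675-5p was at least 5.19-fold lower in motoneurons. None of these 5 groups overlapped, and none of the members shares reads. Of the mesenchymal and muscle markers, 7 of 7 mesenchymal members and 2 of 3 striated muscle members at 15 RPM in each group were lower. Another 3 mesenchymal members and 1 muscle member passed the filter through GFP-negative cells alone.

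Within that mesenchymal list, Mir199a-2 and Mir214 lie in exons of the noncoding gene Dnm3os (chr1:162217814-162217923 and chr1:162223368-162223477, plus strand). miR-214-3p was at 131 and 42.6 RPM in motoneurons against 6996 and 7508, and miR-199b-3p at 545 and 83.1 against 41009 and 46899. Motoneuron library 1 was the higher of the 2 motoneuron libraries for both. The hairpin of miR-199b-3p lies on another chromosome (chr2:32318460-32318569, plus strand), but its letters are those of miR-199a-3p, so reads cannot tell these loci apart. miR-574-3p, from an intron of Fam114a1 (chr5:64970318-64970395, plus strand), was at 4.98 and 2.03 RPM against 97.8 and 126 (-4.72, SE 0.47, limma adjusted p = 0.000555). miR-365-3p was 0 in both motoneuron libraries against 21.9 and 22.3 RPM, at least 4.50-fold lower. Both miR-574-3p and miR-365-3p reached 15 RPM in GFP-negative cells alone and so had to be lower to be tested at all. miR-152-3p, from an intron of the coatomer gene Copz2 (chr11:96850393-96850465, plus strand), was at 122 and 107 RPM against 1334 and 1177 (-3.44, SE 0.21, limma adjusted p = 0.000166). It shares its seed with miR-148a-3p, at 2768 and 2494 against 6800 and 6271 RPM, and miR-148b-3p, at 2933 and 2276 against 3416 and 2911. The first of these passed (-1.31) and the second did not (-0.29, limma adjusted p = 0.259).

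The following lists include miRNAs that act on the cell cycle. In the miR-15/16 and miR-322 list, 12 of 14 were lower and none higher, with a median of -2.19 (11 of 13 with 15 RPM required in each group). Some of its members, such as miR-16-5p, repress cyclins and other cell cycle genes. The list also holds cluster neighbours and other arms with different seeds, among them miR-322-3p, miR-542-3p and miR-351-5p. miR-322-3p was at 361 and 306 RPM in motoneurons and 1425 and 1368 RPM in GFP-negative cells, and miR-542-3p at 285 and 268 against 1502 and 1112. miR-351-5p stood at 826 and 653 against 2082 and 3407, and miR-16-5p, which shares reads with another row, at 310 and 264 against 809 and 657. All 4 were called with any 1 library left out. The miR-17~92 list had 13 of 22 lower, or 8 with the median of ratios and 7 without motoneuron replicate 2. The miR-23/27/24 list had 7 of 9 lower, with miR-27b-3p at 1176 and 1285 RPM against 4833 and 4530. Of these 9, 5 reached 15 RPM in GFP-negative cells alone, and 4 of the 4 others were lower.

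Of 15 members of the let-7 list, 10 were lower and none higher, or 7 of 12 with 15 RPM required in each group. Members with the let-7 seed rise in maturing tissues and repress proliferation genes. The list also holds 3p arms with other seeds, of which let-7a-1-3p, let-7c-2-3p and let-7d-3p were called lower. let-7a-1-3p and let-7c-2-3p share reads and reached 15 RPM in GFP-negative cells alone. let-7g-5p was at 1302 and 1415 RPM against 2748 and 3373, whereas let-7b-5p was at 2533 and 2017 against 1589 and 1619 and did not pass (0.49, limma adjusted p = 0.0631). On the median of ratios scale let-7b-5p was called higher (limma adjusted p = 0.00953), with 2 of the list higher and 9 lower. Without GFP-negative replicate 2, 6 of 12 tested were lower, and with the shared rows summed 3 of 5. The list of miR-34, miR-449 and miR-135 was split, with 1 higher and 2 lower of 7. miR-34c-5p was at 196 and 152 RPM against 529 and 444 (-1.48), and miR-34b-5p at 56.1 and 38.5 against 138 and 165 (-1.68). miR-135a-5p, the last miRNA to pass the threshold, was at 194 and 276 RPM against 73.3 and 145 (limma adjusted p = 0.0483), and was not called without motoneuron replicate 1 or 2 or GFP-negative replicate 1. The next miRNA, miR-149-3p, at 24.9 and 18.3 against 9.0 and 7.43, missed it (limma adjusted p = 0.0501).

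The next lists hold broadly expressed families. Of the miR-30 list, 1 of 11 was lower, miR-30a-5p, at 9433 and 8454 RPM against 12438 and 11782, and none with the median of ratios. miR-30a-5p was called in 1 of 4 fits that left out a library, the one without GFP-negative replicate 2. Of the miR-181 list, 1 of 9 was lower, miR-181b-1-3p, and none with 15 RPM required in each group, with the median of ratios or without motoneuron replicate 1 or GFP-negative replicate 2. miR-181a-5p was level, at 4932 and 4091 against 4437 and 4927 RPM. miR-26b-5p fell, at 982 and 789 RPM against 2082 and 1816 (-1.14), while miR-26a-5p, with the same seed, was at 12600.4 and 12355 against 14148 and 18038 and did not pass (-0.36, limma adjusted p = 0.119). The list of miR-101, miR-103 and miR-107 had 1 of 4 lower, miR-101b-3p, which was not called with the median of ratios, nor without motoneuron replicate 1 or 2 or GFP-negative replicate 1. In the list of miR-130, miR-301, miR-148 and miR-152, 4 of 13 were lower, a share near the background of 30.7%. No member of the miR-29 family reached the filter, and its rows summed to 7.48 to 16.7 RPM.

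The Dlk1-Dio3 region, an imprinted domain with 2 large miRNA clusters, had 35 of 74 members lower and 1 higher, with a median of -0.81 (34 and 1 of 70 with 15 RPM required in each group). With the median of ratios 22 were lower and 2 higher, and without motoneuron replicate 2 there were 24 lower and none higher. miR-541-5p was at 10204 and 10277 RPM against 17051 and 24655, and miR-433-3p at 6749 and 6149 against 8931 and 9663. Neither was called without motoneuron replicate 1 or 2, and miR-433-3p was not called with the median of ratios. The 1 riser, miR-770-3p, was at 998 and 1113 RPM against 394 and 592 (1.12, SE 0.24, limma adjusted p = 0.00978), and was not called without motoneuron replicate 2. The sensory neuron list (miR-182, miR-183 and miR-96) had 3 of 3 lower, with miR-182-5p at 695 and 770 RPM against 3815 and 3947. Of the epithelial list 2 of 4 were lower, miR-200b-3p, at 17.97 and 12.2 against 95.2 and 154 RPM, and miR-205-5p, at 14.95 and 20.3 against 34.7 and 126. miR-205-5p was not called with the median of ratios, nor without motoneuron replicate 1 or 2 or GFP-negative replicate 2 (-2.79 to -0.96). The endothelial miR-126a-3p was called lower of 2 members (-1.07), but not with the median of ratios, motoneuron replicate 2 left out or GFP-negative replicate 1 left out (-1.46 to -0.67). Neither blood member passed, nor did the 1 liver member.

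Seed families were then summed, since their members can act on common targets. Of 345 families tested, 35 (10.1%) were higher and 106 (30.7%) lower in motoneurons, or 58 and 73 with the median of ratios, and 36 and 98 of 315 with 15 RPM required in each group. Among the 39 families with several members, 4 were higher and 19 lower. The ACCCUGU family (miR-10a-5p and miR-10b-5p) was the largest, at 243855 and 228106 RPM against 240646 and 178620, and did not pass (log2 fold change 0.19, limma adjusted p = 0.430). The AAAGUGC family of miR-17, miR-20, miR-93 and miR-106 held 33237 and 29992 RPM in motoneurons against 73881 and 79686 (-1.28, SE 0.13, limma adjusted p = 0.00117). Its sum is independent of how reads were divided among these rows, and the libraries did not overlap. The CAGUAGU family (miR-199-3p) held 726 and 166 RPM against 43532 and 49107 (-7.05, SE 0.63), the largest fall. let-7 with miR-98 (GAGGUAG) held 12168 and 12331 RPM against 17165 and 19112 (-0.56, limma adjusted p = 0.0177), and was not called with the median of ratios. For miR-7 (GGAAGAC) the sums were 17421 and 16627 against 10776 and 13282 RPM, which passed (0.51, limma adjusted p = 0.0410). Its single rows miR-7a-5p (0.33 to 0.66) and miR-7b-5p (0.48 to 0.71) were not called without motoneuron replicate 1 or 2 or GFP-negative replicate 1. The ACCCGUA family of miR-99 and miR-100 did not pass, at 48604 and 58506 against 34626 and 44923 RPM (0.44, limma adjusted p = 0.0948), but was called higher with the median of ratios (0.78).

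Only 2 families held members called in both directions. In the AUUGCAC family, miR-92a-3p was at 36859 and 35287 RPM against 52329 and 64160 and miR-25-3p at 4838 and 4162 against 7165 and 6372, while miR-92b-3p was at 12958 and 11003 against 9288 and 7582. The family sum was 55554 and 51493 RPM against 69717 and 79059, lower in motoneurons (-0.47, limma adjusted p = 0.0359) but not with the median of ratios (limma adjusted p = 0.415). Neither miR-92a-3p (-0.68) nor miR-25-3p (-0.59) was called with the median of ratios, or without motoneuron replicate 1 or 2. miR-92b-3p (0.51) was not called without motoneuron replicate 1 or 2 or GFP-negative replicate 2 (0.36 to 0.66 over these fits and the remaining one). The split by direction was thus seen on the scale of RPM with all libraries in, and not with the median of ratios or without either motoneuron replicate. As the printed sequences show, the 3 share bases 2 to 8 and come from different loci, miR-92a from the miR-17~92 cluster and its X-linked paralog, miR-25 from the replication gene Mcm7 (chr5:138165321-138165404, minus strand) and miR-92b from between genes (chr3:89227116-89227198, minus strand). In the CAAAGCA family, miR-330-3p was higher, at 502 and 454 against 230 and 215 RPM, and miR-6240 lower, at 37.4 and 54.7 against 95.2 and 141, the latter not called without motoneuron replicate 1 or GFP-negative replicate 2 (-1.62 to -1.06).

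The 2 arms of a hairpin were compared next. For 139 hairpins both arms passed the filter, and in 37 both arms were called, 32 lower and 5 higher, with none called in opposite directions. Of the 113 with both arms at 15 RPM in each group, 20 had both arms lower and 2 both higher. In 50 a single arm was called and in 52 neither. Across these hairpins the 2 arms' log2 fold changes had a Pearson r of 0.86, or 0.91 over the 87 hairpins without shared reads, as a description of arms that share libraries and scaling. The same arm was the more abundant in all 4 libraries for 122 hairpins, 5p for 72 and 3p for 50. No hairpin passed a test of the 5p to 3p ratio between groups (0 of 139, 0.0%, limma adjusted p under 0.05), while 22 had an unadjusted p under 0.05 and the lowest adjusted p was 0.0931. The ratio did not overlap between groups for 74 (53.2%). With a pseudocount of 10 RPM 6 hairpins passed, among them Mir296 and Mir342. Also among them were Mir218-2 and the miR-143 hairpin, each with an arm that passed the filter through 1 group alone. For these the larger pseudocount itself moved the ratio difference, from 0.27 to 2.34 and from 0.92 to 3.37. The others were let-7c-2 (3.52 to 1.82) and miR-199a (-2.41 to -2.30), each with an arm that shares reads with other rows. The 3p arm of let-7c-2 also passed the filter through GFP-negative cells alone. log2(5p/3p) of Mir296, from between genes on chromosome 2, was -6.30 and -5.95 in motoneurons against -4.43 and -4.22, with miR-296-3p called higher (10483 and 8231 against 4665 and 3862 RPM) and miR-296-5p not called (132 and 132 against 216 and 206). For Mir342, in an intron of the actin regulator gene Evl, it was -0.43 and -0.18 against -2.26 and -1.71. Of the 87 hairpins without shared reads, the largest ratio difference was that of Mir296 (-1.80, SE 0.31, limma adjusted p = 0.0931), and the median size over all 139 was 0.50 with a median SE of 0.38.

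**Figure D4:**
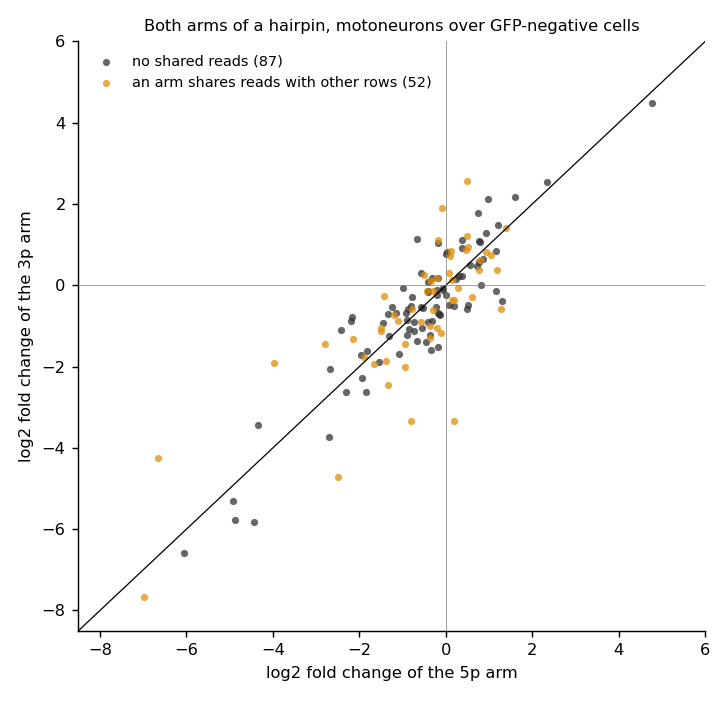
Log2 fold change (motoneurons over GFP-negative cells) of the 5p arm (x axis) and the 3p arm (y axis) of 139 hairpins, with the line of equal change. Points near the line have arms that moved alike, with r = 0.86, and orange points have an arm that shares reads with other rows.

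Clusters were defined as hairpins on one strand with gaps of at most 10 kb. Their counts stand beside 11.6% higher and 30.7% lower over all 492 miRNAs. The X-linked cluster from Mir450b to Mir322 (chrX:53047997-53054349, minus strand) had 7 of 7 arms lower, within the narrow range of -2.68 to -2.07. In the Mir17 to Mir92-1 cluster, in exons of the host RNA Mir17hg (chr14:115043671-115044506, plus strand), 8 of 10 arms were lower (median -1.18, range -1.50 to -0.27). Its paralog Mir363 to Mir106a (chrX:52741693-52742567, minus strand) had 3 of 7 lower with a median of -0.12. Of these 3, the rows miR-92a-3p and miR-19b-3p come from both clusters and were counted in each. The other, miR-106a-5p, shares reads with miR-17-5p and miR-20a-5p, so these calls cannot be assigned to the X-linked paralog alone. The paralog Mir25 to Mir106b had 4 of 6 lower. Counting only arms at 15 RPM in each group, 4 of 4 were lower in Mir199a-2 to Mir214 and 4 of 4 in Mirlet7d to Mirlet7a-1 (chr13:48536012-48538272). By the same count 2 of 2 were lower in Mir23a to Mir24-2 (chr8:84208518-84208921) and 2 of 3 in Mir501 to Mir532 (chrX:7241243-7248497), where the other 3 arms of each passed the filter through GFP-negative cells alone. Not all of these arms come from 1 locus, as miR-24-3p and both miR-199a arms also have hairpins elsewhere. miR-199a-3p shares reads with miR-199b-3p and miR-27a-3p with miR-27b-3p, and let-7a-5p, let-7d-5p and let-7f-5p share reads with other let-7 rows. The chromosome 12 cluster from Mir379 to Mir3072 (chr12:109709060-109747960) had 25 of 47 lower (24 of 44 at 15 RPM in each group) and none higher, from -2.41 to 0.26, and the neighbouring one from Mir770 to Mir136 had 8 of 17 lower and 1 higher. The 6 clusters with the most arms thus held 1 of the miRNAs called higher, miR-770-3p. With the median of ratios, cluster medians were -1.89 for Mir450b to Mir322, -0.83 for Mir17 to Mir92-1 and 0.23 for Mir363 to Mir106a. On that scale they were -0.43 for Mir25 to Mir106b, -0.52 for Mir379 to Mir3072 and -0.34 for Mir770 to Mir136.

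**Figure D5:**
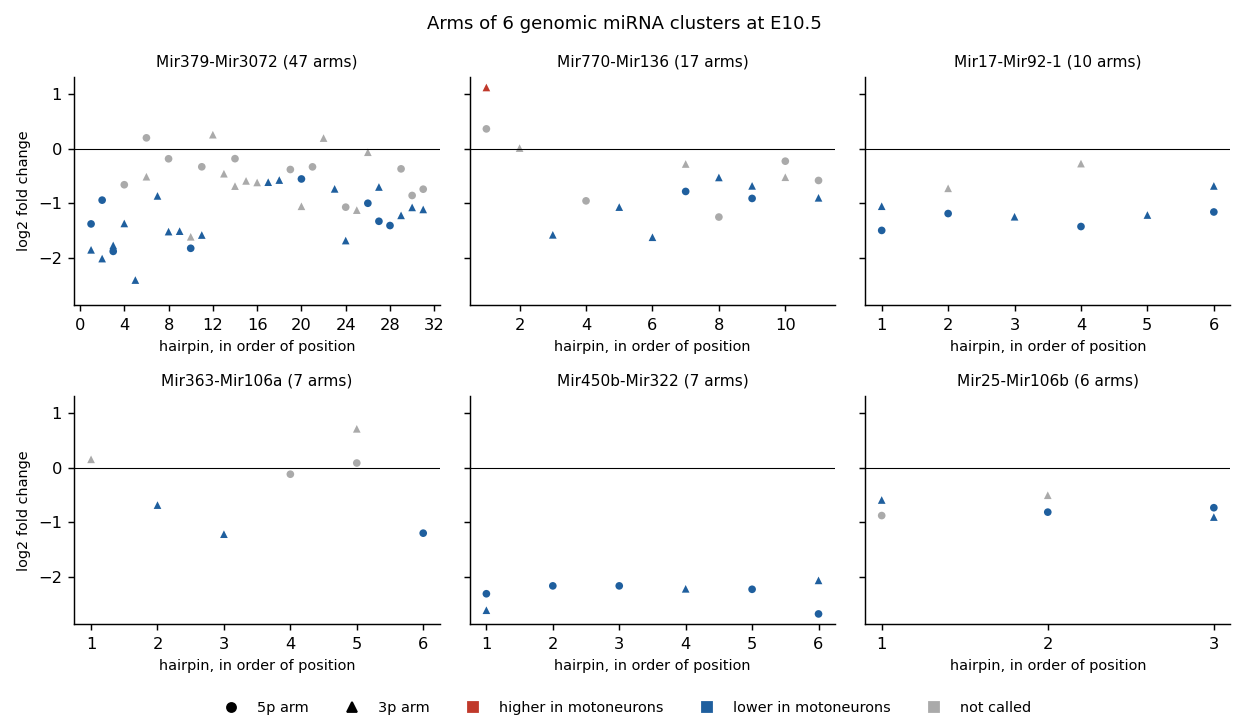
Log2 fold change of each arm in the 6 clusters with the most tested arms, with hairpins numbered in order of position, circles for 5p, triangles for 3p and colours for the call. All 7 arms of the Mir450b to Mir322 cluster lie between -2.68 and -2.07, while the chromosome 12 clusters spread from -2.41 to 1.12.

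Of 348 miRNAs with a single RefSeq hairpin, 41.1% lay within a protein-coding gene on the same strand (GENCODE vM21), 22.7% in a noncoding gene and 36.2% between genes. Of the 34 called higher the counts were 14, 6 and 14, and of the 120 called lower 36, 36 and 48. On chromosome 12 lay 8.8% of those higher and 30.8% of those lower, against 23.9% of all, and the X chromosome held 8.8%, 16.7% and 12.1%. The median GC content of the mature strand was 48.9% for miRNAs called higher, 45.8% for those called lower and 47.8% for all 403 with a sequence, with quartiles that overlapped widely. These shares are descriptions and were not tested.

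At E12.5, in 1 library per population and a separately scaled table, 41 of the 57 miRNAs called higher reached 15 TPM (transcripts per 1000000) in some library. Motoneurons stood above both interneuron libraries for 23 of these 41 and below both for 6. For 101 of the 151 called lower they stood above both for 44 and below both for 29. Over all 329 miRNAs at this level, the counts were 147 above and 89 below. miR-6540-5p was at 508 TPM in motoneurons against 161 in V2a and 175 in V3, and miR-139-3p at 26.2 against 4.23 and 1.44. miR-3475-3p, in contrast, was at 7.96 against 12.1 and 8.82 TPM, miR-672-5p at 1631 against 2612 and 1629, and miR-615-3p at 51662 against 92772 and 96727. The E10.5 comparison sets motoneurons against a mixture and the E12.5 libraries set them beside other neurons, so stage, comparison cells and table cannot be told apart.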

How the data were processed

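Small RNA libraries (NEBNext kit, HiSeq, per the labels' protocols) were aligned with Bowtie2, per the submitters' processing notes. Its version, the build and the counting program are not given. The authors deposited the E10.5 table as RPM, each library summing to 1000000. The header of the deposited E12.5 table names no unit. Its column sums match FPKM of short strands, how the authors made these values is not stated, and they were rescaled to TPM. The authors' group means and ratio (3 columns) were not used. Members and lists were chosen with earlier results of these data known. miRNAs, seed-family sums (RefSeq sequences) and log2 5p to 3p ratios were tested with limma 3.58.1 (R 4.3.3, two-sided, with a mean-variance trend except for ratios) on log2(RPM + 1), Benjamini-Hochberg adjusted, threshold 0.05. This scale understates changes of low miRNAs. The script was tested on simulated data. Depth came from the RPM of 1 read. Named were the 10 most abundant miRNAs of each group, the 15 largest rises and falls, the neighbours of the threshold, up to 4 abundant members per list, the 10 most abundant and most changed seed families and the 6 clusters with most arms. Other miRNAs, families and clusters, and the hairpins Mir296 and Mir342, were named after their values were seen. Alternatives (scaling, filter, pseudocount, summed bundles, replicate block, each library left out) are given in the closing section.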

Additional observations from a re-analysis of the deposited data

How the results depend on the processing

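Among miRNAs, the 57 called higher became 34 with only rows at 0 in every library removed, 94 with the median of ratios, 101 with TMM factors and 88 with totals that leave out miR-218-5p, and 27 to 48 with 1 library left out, fewest without motoneuron replicates 1 (29) and 2 (27). The 151 called lower ranged from 106 to 125 with 1 library left out. Higher seed families went from 35 to 21, 58, 58 and 54 under the same settings, and to 22 to 29 with 1 library left out (22 and 23 without motoneuron replicates 1 and 2); lower families ranged from 77 to 96. Hairpins with a changed 5p to 3p ratio numbered 4 higher and 2 lower with a pseudocount of 10 RPM, and 0 under each other setting run. With the replicate block, 67 miRNAs were higher and 162 lower, 44 and 120 seed families, and 0 hairpins; let-7b-5p (limma adjusted p = 0.0449) and miR-296-5p (0.0493) were called. The 2 libraries with the same number deviated together with a correlation of 0.261, which with 2 pairs does not establish pairing. The median of ratios changed the sign of 67 of the 492 fold changes, 0 of them called, and of the list medians of miR-30 (-0.30 to 0.05), miR-181 (-0.32 to 0.02), miR-101, miR-103 and miR-107 (-0.25 to 0.09) and miR-99, miR-100 and miR-125 (-0.20 to 0.15). Among the miRNAs named, the median of ratios, TMM factors and totals without miR-218-5p changed the sign of miR-122-5p (0.23, 0.23 and 0.18), miR-148b-3p (0.06, 0.06 and 0.01) and miR-181a-5p (0.29, 0.29 and 0.23). With 1 library left out, it changed for miR-10b-5p (-0.12 to 0.28), miR-122-5p (-0.28 to 0.05), miR-128-3p (-0.14 to 0.16), miR-181a-5p (-0.19 to 0.08), miR-3074-5p (-0.27 to 0.36) and the miR-10 family (-0.03 to 0.40). The cause of these shifts was not tested. A count test was not run, because whole reads came out for only 89.9% to 93.6% of low values, and 2 libraries per group limit precision.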

Other observations

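Beyond the lists lay 199 miRNAs, of which 26 were higher and 40 lower in motoneurons; those named here were chosen after their values were seen. miR-598-3p was at 455 and 454 RPM in motoneurons against 197 and 186 (log2 fold change 1.25, limma adjusted p = 0.00380), and miR-384-3p at 81.0 and 89.2 against 29.6 and 29.7 (1.49, limma adjusted p = 0.00978). Both were called with any 1 library left out. miR-217-5p, known from the pancreas, was at 1223 and 1186 RPM against 558 and 718 (0.93, limma adjusted p = 0.00946) and was not called without motoneuron replicate 1.

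miR-140-3p, a miRNA known from cartilage, was at 1482 and 1206 RPM in motoneurons against 3659 and 3423 (-1.40, limma adjusted p = 0.00122), and miR-532-5p, from the X chromosome, at 1020.2 and 1073 against 2886 and 2826 (-1.45, limma adjusted p = 0.000700). miR-375-3p, known from endocrine cells, was low, at 14.95 and 8.11 against 66.9 and 70.5 RPM. It reached 15 RPM in GFP-negative cells alone and so had to be lower to be tested at all. miR-21a-5p was at 3945 and 4454 RPM against 6683 and 7493 (-0.76), and was not called with the median of ratios or without motoneuron replicate 1.

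Of 43 bundles with several known sequences, 15 held a pair with a 15-base stretch in common on opposite strands. In one of them miR-24-3p was lower, at 336 and 468 RPM against 933 and 1247 (-1.44), and its partner miR-3074-5p overlapped between groups, at 104 and 91.9 against 118 and 76.2 RPM. How reads of such pairs were divided was not tested.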
